A study of Homo sapiens with 6 samples.

Results

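The SMAD family and the SKI corepressors were followed as 10 genes: SMAD1, SMAD2, SMAD3, SMAD4, SMAD5, SMAD6, SMAD7, SMAD9, SKI and SKIL. They were taken by symbol from the 58735 gene rows of the count tables, all 10 had reads, and all 10 were among the 17520 genes that passed the filter on low counts. The cells were Jurkat, an established human T cell leukaemia line, and both groups had been infected with a lentiviral vector. The control group carried the short hairpin RNA (shRNA) shCtrl, and the other group carried shSATB1, directed against SATB1, a chromatin-organising protein of T cells; each group held 3 libraries of total RNA (replicates 1 to 3). The study's design text names 1 vector per group, so hairpin and group cannot be told apart. The labels do not say that the replicates came from separate cultures, so the spread between libraries may be technical.

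SMAD proteins carry signals of the TGF-beta family from the cell surface to the nucleus. Ligands of the TGF-beta and activin branch lead to phosphorylation of SMAD2 and SMAD3, ligands of the BMP branch to that of SMAD1, SMAD5 and SMAD9, and either set then binds the common partner SMAD4 to act on target genes. SMAD6 and SMAD7 inhibit the pathway at the receptors, SKI and its relative SKIL (SnoN) repress transcription when bound to SMAD complexes, and in T cells TGF-beta restrains proliferation and effector differentiation.

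Libraries held 26626539 to 28913623 reads in genes, so that 3 reads corresponded to 0.103 to 0.111 CPM, a floor for counting error only. Levels are given as CPM, the read count of a gene scaled to a common library size after TMM adjustment. SATB1 had 279.1, 258.5 and 259.3 CPM in the shCtrl libraries and 101.8, 100.2 and 104.05 CPM in the shSATB1 libraries, in the direction the labels give. All 8 T cell markers looked up were above 1 CPM, with summed levels of 2909 to 3326 CPM in shCtrl and 2660 to 2835 CPM in shSATB1. Of 5 markers each, 0 myeloid, 0 epithelial, 1 B cell (CD79A) and 2 fibroblast markers (COL1A1 and PDGFRB) reached 1 CPM. No library had a read for EPCAM, KRT19 or LUM. CD79A had 60.5 ± 5.03 CPM in shCtrl and 50.4 ± 4.61 CPM in shSATB1, with overlapping libraries. In the fit over all genes described below, CD79A and the T cell markers CD3D, CD247, CD2 and TRBC1 were called lower, as were 16.6% of all tested genes. CD3E, CD3G, LCK and CD28 were not called. The fibroblast sum was 15.5 to 18.02 CPM in shCtrl and 21.3 to 23.1 CPM in shSATB1, nearly all of it COL1A1. In shCtrl and shSATB1, PDGFRB had 1.30 and 1.25 CPM, COL1A2 0 and 0.024 CPM and DCN 0.012 and 0 CPM. COL1A1 is also in the list of pathway target genes below. The part of this sum in the results was not tested. Reads in no annotated exon made up 7.77% to 10.2% of reads in shCtrl and 10.9% to 11.7% in shSATB1. Fits with this no-exon share as a covariate are therefore given where it removed the call of a member or of a gene named by rule. Some other results carry them too. Genes chosen after their values were seen are given without it. In RNA from whole cultures, fewer cells of a kind and less RNA per cell cannot be told apart.

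The family did not move as a block. SMAD7, SKIL, SKI and SMAD3 were higher in shSATB1, SMAD6 was lower, SMAD4 was slightly higher, and SMAD1, SMAD2, SMAD5 and SMAD9 differed by at most 1.16-fold as fitted with all libraries and no covariate. The 10 genes form a family chosen by name after their counts and log2 fold changes in this same comparison were known, so their differences are described with intervals and without a test. In the fit over all genes (edgeR quasi-likelihood, Benjamini-Hochberg adjusted p under 0.05), 5 members were past the threshold upward and 1 downward, where 14.3% and 16.6% of all tested genes were, or 30.9% in either direction. SMAD7 and SKIL were past it with at least a 2-fold difference upward, as were 1.71% of all tested genes. Nothing is read from these counts, since the choice used the same comparison. The libraries of the groups did not overlap for 6 members upward and 1 downward, against 21.7% and 23.4% of all tested genes (45.1% together). The median log2 fold change was 0.18 over the 10 members and 0.01 over all tested genes.

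**Figure D1:**
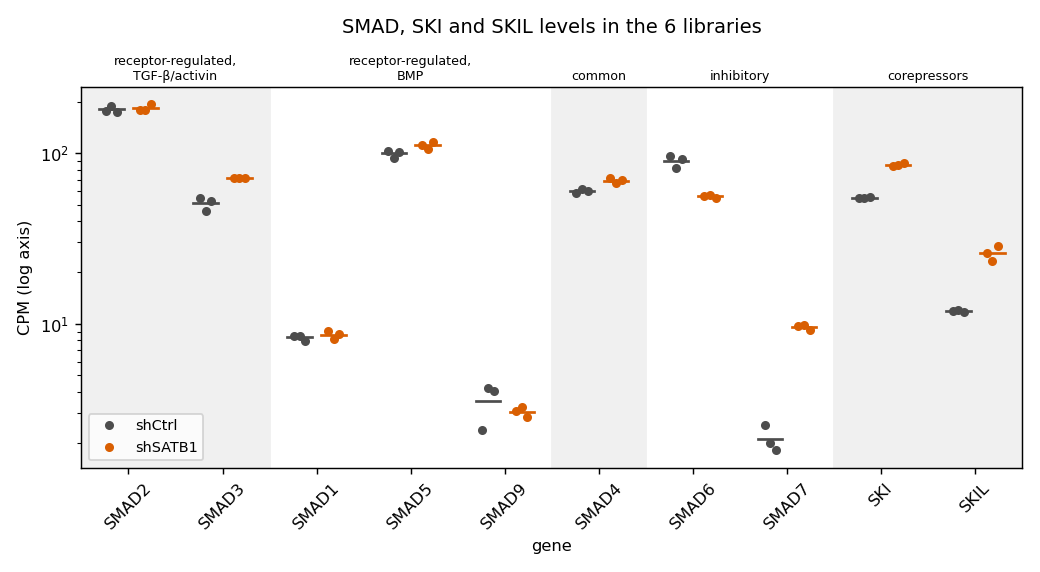
CPM (log axis) of each gene in each library, with shCtrl in grey and shSATB1 in orange; points are libraries and bars are group means of 3. SMAD7, SKIL, SKI and SMAD3 lie higher in all 3 shSATB1 libraries, SMAD6 lies lower, and the points of SMAD1, SMAD2 and SMAD9 overlap.

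The 2 mediators of the TGF-beta and activin branch differed from each other. SMAD3, on chromosome 15 (67063763 to 67195195, plus strand, hg38), had 54.4, 45.6 and 52.3 CPM in the shCtrl libraries and 71.2, 71.8 and 71.3 CPM in the shSATB1 libraries. Every shSATB1 library was above every shCtrl library. The shSATB1 values were nearly equal, with a coefficient of variation of 0.478% against 8.997% in shCtrl, although 3 libraries estimate such a spread only loosely. The mean went from 50.8 ± 4.57 to 71.4 ± 0.342 CPM (SD, n = 3 per group), a fitted log2 fold change of 0.49 (95% interval 0.34 to 0.65). With the no-exon covariate it was 0.28, and SMAD3 then fell short of the threshold. SMAD2, on chromosome 18 (47808957 to 47931146, minus strand), had the most reads of the family, 4728 to 5635 per library. Its shCtrl libraries had 178, 190.2 and 175 CPM and its shSATB1 libraries 179.7, 180.35 and 194 CPM, with overlapping groups. The log2 fold change of SMAD2 was 0.03 (95% interval -0.10 to 0.17). With a correction for gene length it turned to -0.30, outside that interval.

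None of the BMP-branch mediators was past the threshold. SMAD5 (chromosome 5, 136132845 to 136188747, plus strand) was the most abundant of them, with 104, 94.1 and 102 CPM in shCtrl and 112, 105.8 and 116 CPM in shSATB1. The lowest shSATB1 library lay just above the highest shCtrl library, and the log2 fold change was 0.16 (95% interval 0.02 to 0.30). SMAD5 crossed the threshold when shCtrl replicate 1 was left out (log2 fold change 0.18), with a replicate block (0.16) and at a filter of 1 CPM in 3 libraries (0.18), and its log2 fold change was 0.0022 with the covariate. SMAD1 (chromosome 4, 145481194 to 145558079, plus strand) had 8.47, 8.51 and 7.94 CPM in shCtrl and 9.10, 8.11 and 8.65 CPM in shSATB1. These ranges overlapped, and the log2 fold change was 0.05 (95% interval -0.17 to 0.28). SMAD9 (chromosome 13, 36844831 to 36920765, minus strand) had the widest spread of the family, with 2.37, 4.18 and 4.03 CPM in shCtrl and 3.06, 3.25 and 2.83 CPM in shSATB1. Its shCtrl replicate 1 library had 66 reads where the other shCtrl libraries had 115 and 109, and the coefficient of variation in shCtrl was 28.5%. The SMAD9 log2 fold change was -0.21 (95% interval -0.65 to 0.23), -0.44 without shCtrl replicate 1, and 0.43 with the covariate, so these data give SMAD9 no settled direction.

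SMAD4, the common partner (chromosome 18, 51028394 to 51085045, plus strand), differed by little. It had 58.8, 61.5 and 60.3 CPM in shCtrl and 71.1, 67.0 and 69.3 CPM in shSATB1, with no overlap. The mean went from 60.2 ± 1.37 to 69.1 ± 2.07 CPM (SD, n = 3), a log2 fold change of 0.20 (95% interval 0.07 to 0.33) or 1.15-fold. SMAD4 was past the threshold with all libraries but not without shCtrl replicate 1, shCtrl replicate 3, shSATB1 replicate 1 or shSATB1 replicate 3, where its log2 fold change was 0.18, 0.20, 0.19 and 0.21. It was also short of the threshold with the covariate (0.23) and with a correction for gene length (0.04), and in 8 of the 16 alternative settings in all. Of its exon bases, 7.37% are also exon of AC091551.1, a gene annotated on the same strand.

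The inhibitory SMADs moved in opposite directions. SMAD7 (ENSG00000101665, chromosome 18, 48919853 to 48952052, minus strand) inhibits both branches by occupying activated receptors and recruiting ubiquitin ligases to them, and it is itself a target gene of the pathway. Its reads numbered 71, 55 and 49 in shCtrl and 267, 277 and 265 in shSATB1. In CPM these were 2.55, 2.00 and 1.81 against 9.72, 9.77 and 9.14. The lowest shSATB1 library stood far above the highest shCtrl library, and the shSATB1 libraries were close to each other. The mean went from 2.12 ± 0.383 to 9.54 ± 0.353 CPM, a log2 fold change of 2.17 (SE 0.145, 95% interval 1.86 to 2.48), rank 15 from the top among the 17520 tested genes. SMAD6 (ENSG00000137834, chromosome 15, 66702228 to 66782848, plus strand), which acts mainly on the BMP branch, had 95.7, 81.7 and 92.2 CPM in shCtrl and 56.0, 57.1 and 54.7 CPM in shSATB1. All shSATB1 libraries were below all shCtrl libraries. Its mean went from 89.9 ± 7.29 to 55.9 ± 1.202 CPM, a log2 fold change of -0.68 (SE 0.0699, 95% interval -0.83 to -0.54), and 97.5% of tested genes had a higher log2 fold change. Over the 16 alternative settings the log2 fold change of SMAD7 lay between 1.99 and 2.31 and that of SMAD6 between -0.87 and -0.64.

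The promoter windows of these inhibitory SMADs are shown because the genes moved apart; the window of SKIL, the corepressor with the larger difference, is added for comparison. Each window is RefSeq sequence (GRCh38.p14) from 250 bases before to 50 after an annotated start, written 5′ to 3′ on the gene's strand. The SMAD6 window is chr15:66701986-66702285, plus strand; the first of 3 SMAD7 windows is chr18:48950916-48951215, minus strand; the SKIL window is chr3:170357465-170357764, plus strand. Capitals mark GTCTAGAC, the palindrome known to bind SMAD3 and SMAD4, and the shorter element CAGAC on either strand.
SMAD6: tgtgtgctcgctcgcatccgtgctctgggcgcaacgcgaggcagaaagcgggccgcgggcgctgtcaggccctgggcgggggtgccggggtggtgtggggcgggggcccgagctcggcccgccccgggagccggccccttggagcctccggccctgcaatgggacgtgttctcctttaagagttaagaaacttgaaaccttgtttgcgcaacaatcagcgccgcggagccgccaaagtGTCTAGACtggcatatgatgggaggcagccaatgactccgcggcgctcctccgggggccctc
SMAD7: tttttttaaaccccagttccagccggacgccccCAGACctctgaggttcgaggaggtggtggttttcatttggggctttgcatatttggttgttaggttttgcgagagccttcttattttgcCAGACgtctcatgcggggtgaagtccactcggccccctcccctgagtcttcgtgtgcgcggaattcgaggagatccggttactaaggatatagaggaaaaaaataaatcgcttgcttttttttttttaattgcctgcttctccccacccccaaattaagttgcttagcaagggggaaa
SKIL: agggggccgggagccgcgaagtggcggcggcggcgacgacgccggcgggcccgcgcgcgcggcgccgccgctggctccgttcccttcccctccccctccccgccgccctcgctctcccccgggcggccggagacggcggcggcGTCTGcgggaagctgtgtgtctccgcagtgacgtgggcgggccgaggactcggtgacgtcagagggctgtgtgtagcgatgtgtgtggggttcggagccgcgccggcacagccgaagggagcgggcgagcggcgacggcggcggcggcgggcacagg
GTCTAGAC occurred in the SMAD6 window (chromosome 15, 66702224 to 66702231) and in no other of the 20 windows listed for 9 members, and 0.202% of 35116 windows of all genes hold it. CAGAC, on either strand, occurred in 8 of the 20 windows, those of 5 members (SMAD1, SMAD3, SMAD7, SMAD9 and SKIL), and in 45.3% of all windows. TGAGTCA, an AP-1 element searched on both strands, occurred in 2 of the 20 windows, of SMAD1 and SMAD3, and in 4.95% of all windows. The SMAD7 window had an A+T content of 51.7%, against 32% for SMAD6, 21% for SKIL and a median of 41.3% over all windows. SKI has no entry in the table. These matches describe the letters of the windows and carry no measurement of binding. Sequence outside the windows was not searched, so a gene without a match here may still hold the element nearby.

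Both corepressors were higher. SKI (ENSG00000157933, chromosome 1, 2228695 to 2310119, plus strand) is the founding member of its family and recruits histone deacetylase complexes to SMAD-bound promoters. Its shCtrl libraries had 54.3, 54.4 and 55.5 CPM and its shSATB1 libraries 83.6, 85.4 and 87.4 CPM. The groups did not overlap, and their coefficients of variation were 1.19% and 2.23%, small spreads that 3 libraries estimate only loosely. The log2 fold change was 0.64 (SE 0.0596, 95% interval 0.52 to 0.77). SKIL (ENSG00000136603, chromosome 3, 170357678 to 170396835, plus strand), whose transcript is also induced by TGF-beta, had 11.88, 11.965 and 11.78 CPM in the shCtrl libraries and 26.1, 23.4 and 28.4 CPM in the shSATB1 libraries. The lowest shSATB1 library was well above the highest shCtrl library. The SKIL mean went from 11.9 ± 0.0923 to 26.0 ± 2.48 CPM, a log2 fold change of 1.13 (SE 0.0907, 95% interval 0.93 to 1.32); 1.47% of tested genes had a higher log2 fold change. SKI lay between 0.63 and 0.67 and SKIL between 1.046 and 1.21 over the 16 alternative settings.

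**Figure D2:**
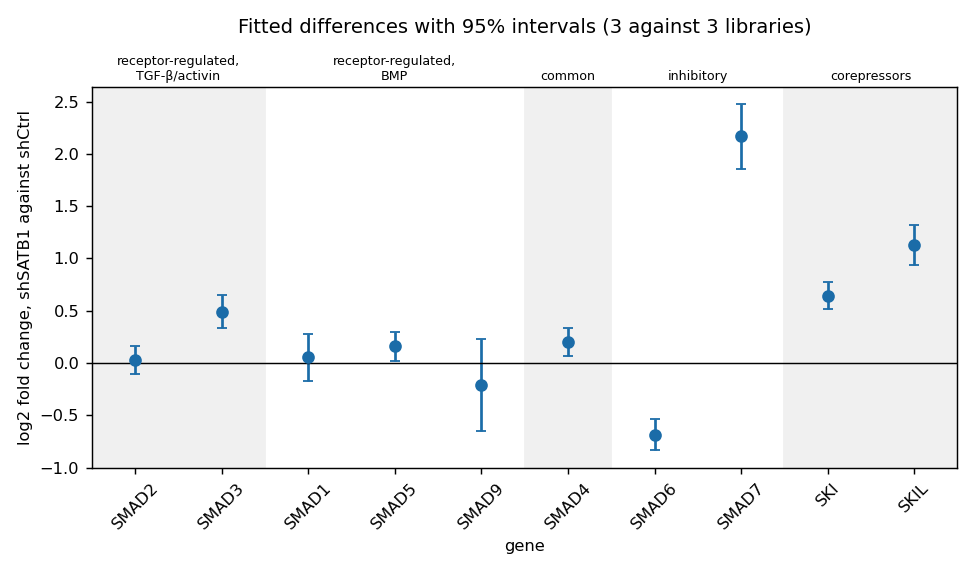
Fitted log2 fold change of shSATB1 against shCtrl (y axis) for each gene, with 95% intervals from 3 against 3 libraries and shading by role. The intervals of SMAD3, SMAD4, SMAD5, SMAD7, SKI and SKIL lie above 0, that of SMAD6 lies below 0, and those of SMAD1, SMAD2 and SMAD9 include 0.

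**Figure D3:**
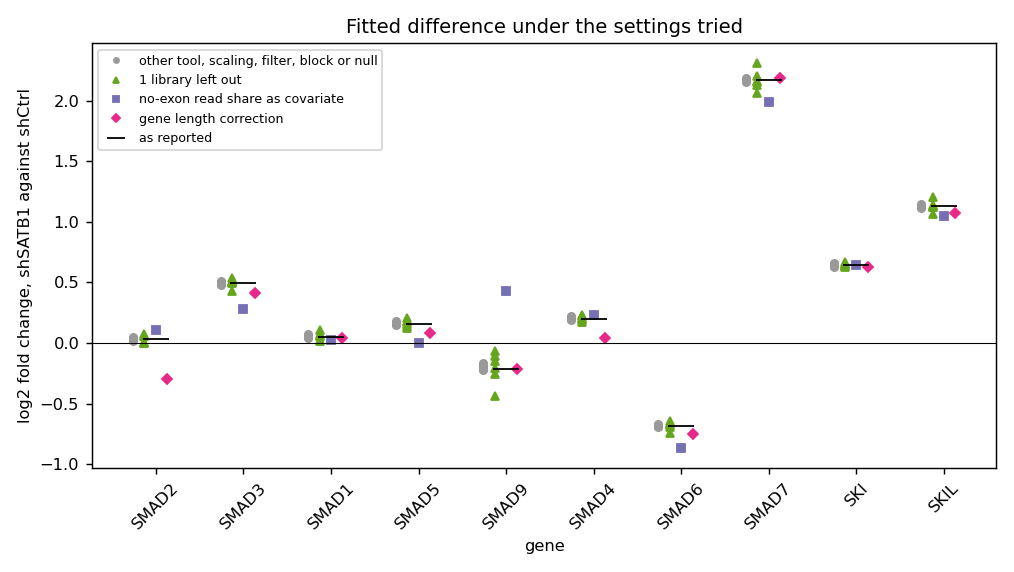
Fitted log2 fold change (y axis) of each gene as reported and under the 16 alternative settings. The values of SMAD6, SMAD7, SKI and SKIL keep their sign, SMAD2 turns to -0.30 with the correction for gene length, and SMAD9 turns to 0.43 with the no-exon covariate.

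Levels of different genes were compared as CPM per kb of merged exons. In shCtrl, SMAD5 (11.04 ± 0.552 CPM per kb, SD, n = 3) and SMAD6 (10.5 ± 0.852) were highest and their libraries overlapped. SKI followed at 9 ± 0.107, then SMAD3 at 5.57 ± 0.501 and SMAD2 at 4.98 ± 0.226, whose libraries also overlapped, and SMAD4 at 4.59 ± 0.104 CPM per kb. SKIL (1.53 ± 0.0119) and SMAD1 (1.37 ± 0.0524) stood lower, and SMAD9 (0.616 ± 0.176) and SMAD7 (0.421 ± 0.0761 CPM per kb) were last and overlapped. In shSATB1 the order changed at both ends: SKI was first at 14.1 ± 0.314 CPM per kb, ahead of SMAD5 at 12.3 ± 0.577, and SMAD3 at 7.84 ± 0.0375 passed SMAD6 at 6.53 ± 0.140. SMAD4 (5.27 ± 0.158) and SMAD2 (5.08 ± 0.226) overlapped in the middle. SMAD7 at 1.90 ± 0.0702 CPM per kb passed SMAD1 (1.42 ± 0.0816) and SMAD9 (0.532 ± 0.0366), while SKIL stood at 3.34 ± 0.318 CPM per kb. The order depends on the length used. SMAD2 has 36.4 kb of merged exons owing to 1 transcript of 34.5 kb. That transcript is also its longest, so its place rests on it under either length. With the longest transcript as the length, SMAD6 and not SMAD5 was first in shCtrl, SMAD4 ranked above SMAD2 and SMAD1 above SKIL there, and in shSATB1 SMAD5 ranked above SKI and SMAD1 above SMAD7.

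**Figure D4:**
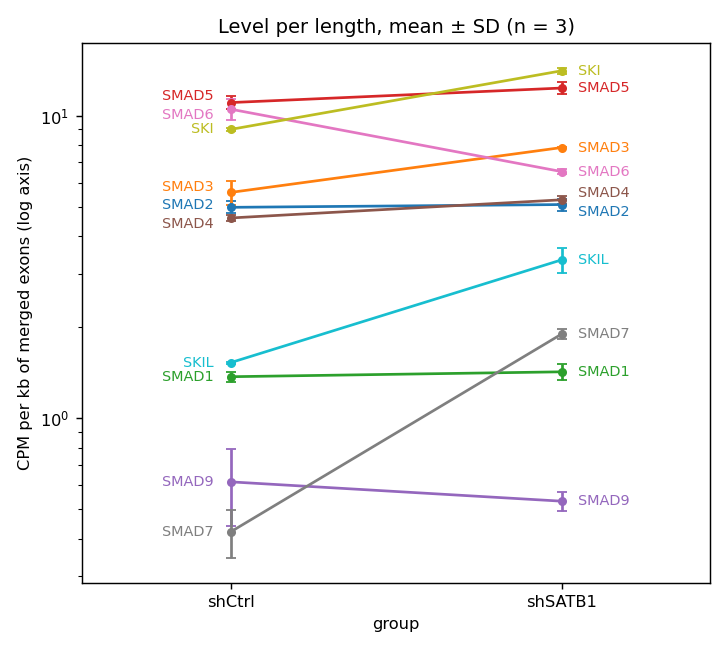
Mean CPM per kb of merged exons (log axis) ± SD over 3 libraries for each gene in shCtrl (left) and shSATB1 (right). The line of SMAD7 climbs from the lowest place to above SMAD1 (below it by longest transcript), and the line of SMAD6 falls from the top group to below SMAD3.

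The balance between roles shifted with these levels. Summed per kb, the inhibitory SMADs stood at 48.4, 43.6 and 46.8 per 100 of the receptor-regulated SMADs in shCtrl and at 31.1, 32.5 and 29.4 in shSATB1. The inhibitory pool was thus lower in every shSATB1 library, although SMAD7 within it was higher; SMAD6 made up most of it. SMAD7 supplied 4.33%, 3.998% and 3.23% of that pool in shCtrl and 22.8%, 22.6% and 22.1% in shSATB1. The BMP-branch share of receptor-regulated SMADs was 55.3% ± 0.402 in shCtrl and 52.5% ± 0.912 in shSATB1 (SD, n = 3), and SKIL per SKI was 0.170 ± 0.00317 and 0.237 ± 0.0205. SMAD4 per receptor-regulated SMAD was 0.195 ± 0.0102 and 0.194 ± 0.00510, with overlapping libraries. These are ratios of transcript levels and say nothing of protein. The sums of receptor-regulated SMADs count SMAD2 per 36.4 kb, a length owed to 1 transcript of 34.5 kb. A shorter length would raise its weight and lower the inhibitory ratio, the SMAD4 ratio and the BMP-branch share in both groups. Which SMAD2 transcripts the cells held was not measured.

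Antisense and intronic transcripts named for SMAD genes were close to absent. SMAD1-AS1 had no read, SMAD5-AS1 and SMAD9-IT1 had at most 1 read per library, and SMAD1-AS2 had 1, 0 and 0 reads in shCtrl and 3, 2 and 4 in shSATB1, near the floor. SMAD1-AS1 shares 6.21% of the exon bases of SMAD1, and SMAD5-AS1 6.75% of those of SMAD5, on the opposite strand.

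By a rule on likeness (smallest distance between log2 CPM over the 6 libraries, each centred on its own mean), the protein-coding genes most like SMAD7 were ASCL4 (distance 0.24), HIST1H2AC (0.52), SLC6A12 (0.53), IQSEC3 (0.56) and CCDC198 (0.66), out of 13114 compared. ASCL4 was also at a similar level, with 2.10 ± 0.346 CPM in shCtrl and 9.28 ± 0.0331 CPM in shSATB1. SLC6A12, IQSEC3 and CCDC198 were below 2 CPM in both groups. The 6 libraries are those of the group comparison, so this likeness is a description only.

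The members lie near each other in places. SMAD2, SMAD7 and SMAD4 are all on chromosome 18, and SMAD6 ends 280.9 kb before SMAD3 on chromosome 15 on the same strand; SMAD3 and SMAD6 differed in direction. Outside the family, 59 tested genes lay within 500 kb of a member, and 10 of them rose and 7 fell (28.8%, against 30.9% of all tested genes; edgeR). Around SMAD7, 3 genes were tested: CTIF, 56.6 kb away, had 11.88 and 11.98 CPM, AC016866.1 had 0.533 and 0.580 CPM, and DYM, 89.4 kb away, fell from 69.9 ± 3.80 to 58.3 ± 3.30 CPM (adjusted p = 0.0103, edgeR). These 3 were chosen after their values were seen. Called changes of at least 1.5-fold among the neighbours were found for PLCH2, a phospholipase C gene near SKI, which rose from 0.521 ± 0.0535 to 1.202 ± 0.212 CPM (adjusted p = 0.00704, edgeR), for RPL22L1 near SKIL, which fell from 25.5 ± 4.82 to 16.7 ± 1.19 CPM (adjusted p = 0.00159, edgeR), and for the pseudogene AL031282.1 near SKI (adjusted p = 0.0495, edgeR). The AL031282.1 call was lost without each library except shCtrl replicate 1 (adjusted p up to 0.188, edgeR). It was also lost with no filter, with DESeq2 and with a replicate block (adjusted p = 0.0530, edgeR). The covariate removed it too, at a log2 fold change of 0.55 (adjusted p = 0.497, edgeR). With the covariate PLCH2 and RPL22L1 were short of the threshold (adjusted p = 0.0750 and 0.696, edgeR), but the log2 fold change of PLCH2 was larger, 1.63 against 1.198, and that of RPL22L1 shrank from -0.61 to -0.11. The number of neighbours that rose was 5 without shCtrl replicate 3, 4 without shSATB1 replicate 1 and 3 without shSATB1 replicate 3; over all tested genes the number that rose went from 2500 to 1662, 1670 and 1650 in these fits.

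The rest of the pathway was read from lists by role, holding 148 genes of which 108 were tested; 33 rose and 15 fell (edgeR, adjusted p under 0.05), and the median log2 fold change was 0.12. The tested share called was 44.4%, against 30.9% of all tested genes (14.3% rose and 16.6% fell), the background for each list that follows. The lists were chosen with earlier results of these data known, and they were not matched to this background by expression level. The shares of these lists are therefore given as description, and nothing is read from their distance to the background. With the covariate 8 rose and 8 fell, where 858 and 1262 of all 17520 tested genes did. When a difference had to exceed 1.2-fold in the test, 10 rose and 2 fell, where 758 and 698 of all tested genes did. The number that fell was 7 without shCtrl replicate 3, 7 without shSATB1 replicate 1, 8 without shSATB1 replicate 2 and 7 without shSATB1 replicate 3, while over all tested genes it went from 2910 to 2071, 1817, 2225 and 1852.

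Of 10 tested receptor genes, 5 rose and 1 fell (60%, against 30.9% of all tested genes), with a median log2 fold change of 0.24. The type II receptor genes of the BMP and activin branches rose: BMPR2 from 38.7 ± 4.72 to 58.1 ± 4.18 CPM (log2 fold change 0.59, adjusted p = 0.000294, edgeR), ACVR2B from 108 ± 18.5 to 148 ± 4.92 CPM (adjusted p = 0.00355, edgeR) and ACVR2A from 2.67 ± 0.149 to 4.04 ± 0.465 CPM (adjusted p = 0.0117, edgeR). TGFBR2, the type II receptor for TGF-beta, fell from 53.3 ± 4.09 to 40.7 ± 1.505 CPM (log2 fold change -0.39, adjusted p = 0.00130, edgeR). The other 2 that rose, chosen after their values were seen, were the type I receptors TGFBR1, from 36.2 to 47.7 CPM, and BMPR1A, from 42.2 to 51.2 CPM. The ACVR2A call was lost without shCtrl replicate 3 and without shSATB1 replicate 1 (adjusted p = 0.0509 and 0.0617, edgeR), with log2 fold changes of 0.56 and 0.53 against 0.60 with all libraries. With the covariate the calls of ACVR2A, BMPR2 and ACVR2B were lost (adjusted p = 0.455, 0.152 and 0.962, edgeR), at log2 fold changes of 0.40, 0.24 and 0.01, and that of TGFBR2 held.

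Of 33 ligand genes listed, 13 were tested, and 2 rose and 2 fell (30.8%, near the 30.9% of all tested genes). TGFB1, the main TGF-beta of lymphocytes, was at 83.8 and 83.9 CPM and did not pass (adjusted p = 0.998, edgeR). TGFB3 rose from 8.45 ± 0.407 to 12.5 ± 0.754 CPM (log2 fold change 0.56, adjusted p = 0.000894, edgeR). With the covariate its log2 fold change was 0.51 with a larger SE (0.182 against 0.0991), short of the threshold (adjusted p = 0.0577, edgeR). GDF9 rose and AMH and BMP10 fell (adjusted p = 0.0266, 0.0461 and 0.0419, edgeR), at log2 fold changes of 0.49, -0.24 and -0.56. The GDF9 call ended without shCtrl replicate 3 or shSATB1 replicate 1 or 3, that of AMH without shCtrl replicate 3 or any 1 shSATB1 library, and that of BMP10 without shCtrl replicate 1 or 3 or shSATB1 replicate 2 or 3 (adjusted p up to 0.109, 0.227 and 0.181, edgeR). The log2 fold changes in these fits were 0.43 to 0.47 for GDF9, -0.27 to -0.17 for AMH and -0.56 to -0.42 for BMP10. With the covariate the calls of GDF9 and AMH were lost (adjusted p = 0.93 and 0.372, edgeR), and that of BMP10 held. The log2 fold changes of GDF9 and AMH were then 0.057 and -0.202. Of 13 tested regulators of ligands, 5 rose and 0 fell (38.5%). ITGAV, the integrin chain that takes part in releasing latent TGF-beta, rose from 21.1 ± 1.38 to 41.6 ± 5.40 CPM (log2 fold change 0.98, adjusted p = 1.15e-05, edgeR), FSTL1 from 6.02 ± 0.673 to 9.38 ± 0.175 CPM (adjusted p = 0.00105, edgeR) and the protease gene BMP1 from 43.0 ± 3.73 to 55.1 ± 2.08 CPM (log2 fold change 0.36, adjusted p = 0.00261, edgeR; 0.21 and 0.221 with the covariate). LTBP1 and TWSG1 also rose, named after their values were seen.

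Among nuclear partners of SMADs, 7 of 21 tested rose and 2 fell (42.9%). The acetyltransferase genes CREBBP and EP300, coactivators of SMAD complexes, were higher, CREBBP at 102 ± 16.3 and 149 ± 1.33 CPM and EP300 at 146 ± 36.5 and 207 ± 6.36 CPM (adjusted p = 0.000677 and 0.00866, edgeR). With the covariate neither was called (adjusted p = 0.221 and 0.482, edgeR), the log2 fold change of CREBBP went from 0.54 to 0.17, and that of EP300 turned from 0.50 to -0.10. SNW1 fell from 100.4 ± 10.2 to 74.5 ± 2.07 CPM (log2 fold change -0.43, adjusted p = 0.000753, edgeR; -0.18 and 0.207 with the covariate). ZNF423 rose and E2F4 fell (adjusted p = 0.0251 and 0.0256, edgeR). The ZNF423 call was lost without shCtrl replicate 2 or any 1 shSATB1 library, and the E2F4 call without shCtrl replicate 3 or shSATB1 replicate 1 or 3 (adjusted p up to 0.0976 and 0.176, edgeR). The log2 fold change of ZNF423 was 0.63 to 0.82 in these fits, against 0.75 with all libraries. That of E2F4 was -0.20 to -0.16, against -0.21. With the covariate they were 0.50 and -0.10, and neither gene was called (adjusted p = 0.532 and 0.51, edgeR). The E2F4 call was also lost with the correction for gene length.

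Of 27 genes for turnover, dephosphorylation and anchoring of SMADs and receptors, 8 rose and 7 fell (55.6%). LDLRAD4, a membrane inhibitor of TGF-beta signalling, rose from 233 ± 13.7 to 372 ± 12.7 CPM (log2 fold change 0.67, adjusted p = 8.14e-06, edgeR), while its relative PMEPA1, named after its values were seen, fell from 184 to 158 CPM (adjusted p = 0.0138, edgeR). The ligases SMURF1 and SMURF2, which SMAD7 brings to the receptors, did not pass (29.6 and 31.2 CPM, adjusted p = 0.481; 44.9 and 49.3 CPM, adjusted p = 0.159, edgeR; chosen after their values were seen). ZFYVE16, an endosomal anchor of SMADs, rose from 40.8 ± 4.88 to 59.1 ± 4.83 CPM (log2 fold change 0.53, adjusted p = 0.000642, edgeR; 0.17 and 0.332 with the covariate). The phosphatase gene CTDSPL fell from 38.2 ± 0.636 to 28.5 ± 0.459 CPM and the deubiquitinase gene UCHL5 from 97.6 ± 4.60 to 76.9 ± 4.69 CPM (adjusted p = 0.000460 and 0.00170, edgeR). YAP1 rose and STUB1 fell (adjusted p = 0.0383 and 0.0272, edgeR). The YAP1 call was lost without shCtrl replicate 3 or any 1 shSATB1 library, and the STUB1 call without shCtrl replicate 3 or shSATB1 replicate 1 or 2 (adjusted p up to 0.182 and 0.150, edgeR). The log2 fold change of YAP1 was 0.56 to 0.83 in these fits, against 0.74 with all libraries. That of STUB1 was -0.34 to -0.26, against -0.35. With the covariate they were 0.84 and -0.26, and neither gene was called (adjusted p = 0.286 and 0.302, edgeR). The YAP1 call was also lost with DESeq2, and the STUB1 call with the correction for gene length.

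Known target genes of the pathway, apart from the members SMAD6, SMAD7 and SKIL, divided. Of 24 tested, 6 rose and 3 fell (37.5%), with a median log2 fold change of 0.00. Those that rose include COL1A1, the fibroblast marker looked up above (adjusted p = 0.00295, edgeR), named after its values were seen. ID1, ID2 and ID3, helix-loop-helix inhibitors that are classic BMP targets, all rose: ID2 from 3.61 ± 0.790 to 6.93 ± 0.206 CPM (adjusted p = 0.000575, edgeR), ID3 from 36.4 ± 2.89 to 54.4 ± 5.54 CPM (adjusted p = 0.000242, edgeR) and ID1 from 19.4 ± 1.93 to 26.2 ± 3.97 CPM (adjusted p = 0.00830, edgeR). Their calls held without each library in turn and with the covariate. MYC, which TGF-beta represses in many cells, fell from 502 ± 14.2 to 309 ± 9.59 CPM (adjusted p = 3.23e-06, edgeR), and GADD45B fell from 8.41 ± 0.705 to 5.90 ± 0.151 CPM (log2 fold change -0.51, adjusted p = 0.00412, edgeR; -0.29 and 0.404 with the covariate). BHLHE40 fell (adjusted p = 0.0194, edgeR). Its call was lost without shCtrl replicate 3 or any 1 shSATB1 library (adjusted p up to 0.0745, edgeR), although its log2 fold change stayed between -0.31 and -0.30. With the covariate the log2 fold change was -0.32, short of the threshold (adjusted p = 0.244, edgeR). The BHLHE40 call was also lost with the correction for gene length. The target JUNB, chosen after its values were seen, was short of the threshold with 34.2 CPM in shCtrl and 33.5 CPM in shSATB1 (adjusted p = 0.806, edgeR). The targets CDKN2B and SNAI2 had no read in any library.

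**Figure D5:**
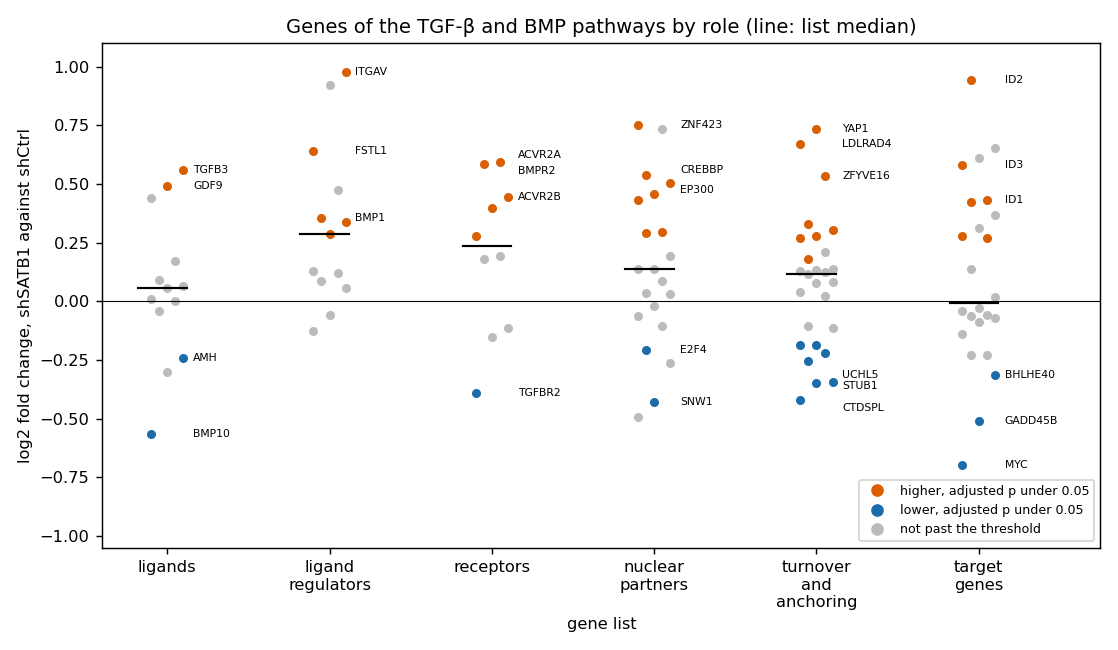
Log2 fold change of shSATB1 against shCtrl (y axis) for 108 tested pathway genes in 6 lists by role; orange and blue mark genes higher and lower at an adjusted p under 0.05, grey the rest, and lines the list medians. Receptors have 5 higher genes and 1 lower (TGFBR2), and the target list has ID2 highest and MYC lowest.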

How the data were processed

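RNA-seq of 6 Jurkat libraries (3 shCtrl, 3 shSATB1) was analysed; groups and replicate numbers come from the sample titles. The authors deposited raw read counts per Ensembl gene, 1 table per library, not normalized. Per the submitters' processing notes, Trim Galore, STAR and HTSeq were used with build hg38. Versions, annotation release and strand setting are not given there, so reads of overlapping and antisense genes are uncertain. The 5 closing lines that name no gene stayed out of library sizes and tests.

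All 58735 identifiers matched GENCODE 29, which gave symbols, positions and exon lengths. edgeR 4.0.16 (R 4.3.3) was used with TMM, filterByExpr (minimum count 10) and the quasi-likelihood F test without covariates, with Benjamini-Hochberg adjustment over 17520 genes at 0.05; the procedure was tested on simulated data. Log2 CPM for likeness used a prior count of 2. DESeq2 1.42.0 and limma 3.58.1 served as alternatives, beside other scalings, filters, a replicate block, left-out libraries, a gene length correction, a covariate and a 1.2-fold null.

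Members, gene lists and settings were chosen with earlier results of these data known. Named genes were the members, SATB1, up to 3 called genes per list and direction with at least 1 CPM, neighbours changed by at least 1.5-fold and 5 genes like SMAD7. No protein sequences were used here.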

Additional observations from a re-analysis of the deposited data

How the results depend on the processing

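Of the members, SMAD2 and SMAD9 changed sign in 1 of the 16 alternatives each, and the others in 0; these refits use the libraries from which the members were chosen. With the no-exon share of reads as a covariate, 3 members were higher, 8 pathway genes rose and 8 fell, and 2 neighbouring genes rose and 1 fell. The covariate was larger in all shSATB1 libraries than in any of shCtrl, so it overlaps with the group. Against a 1.2-fold null, 10 pathway genes rose and 2 fell, and 1 neighbouring gene rose and 1 fell. With the correction for gene length 2 members were lower, SMAD6 and SMAD2, which turned to a log2 fold change of -0.30. The cause of this turn was not tested. With the same correction 32 pathway genes rose and 12 fell. Of the 33 that rose and the 15 that fell without it, 29 and 9 were still called. EP300 turned to -0.10 with the covariate, and the cause was not tested. Left-out libraries gave 4 to 5 members higher, 24 to 38 pathway genes that rose and 7 to 16 that fell, and 3 to 11 neighbouring genes that rose and 5 to 9 that fell. By longest transcript, inhibitory SMADs stood at 57.7 (shCtrl) and 36.1 (shSATB1) per 100 receptor-regulated SMADs, with SMAD2 still counted per 34.5 kb.

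The replicate numbers did not pair the libraries (correlation of same-numbered deviations 0.0798, 0.0712 and 0.00320, and shCtrl replicate 3 correlated better with another number). A replicate block gave 6 members higher, SMAD5 added, 1 lower, 33 pathway genes that rose and 15 that fell. Over all tested genes it gave 2783 that rose and 3120 that fell, against 2500 and 2910 without it. Of 31 named genes outside the family, 21 kept the call with each library left out and 11 with the covariate. The lowest depth among the members was that of SMAD7 in shCtrl, with 49 to 71 reads per library.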
